A study of Mus musculus with 9 samples.

Results

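The 38 genes described here encode the machinery with which a cell condenses its chromosomes, builds a spindle and parts its chromatids: kinases and cyclins of mitotic entry, spindle proteins and kinesin motors, kinetochore and checkpoint proteins, factors of mitotic exit, and condensin with other chromosome proteins. They were taken by symbol, and all 38 were found among the 41128 genes of the deposited table, 37 by their symbol and Ccnb1 by its Ensembl ID (ENSMUSG00000041431.11), since its row carries no symbol. Nuclear RNA of PCM-1-positive nuclei of the left ventricle was sequenced at P12 from 9 FVB mice in 3 groups of 3. The first group held stressed cKO mice (Fstl1KO/fl;Tie2-Cre), scored 1 for cardiac stress and labelled with volume overload of the left ventricle (S1 to S3), the second unstressed cKO mice of the same genotype (U1 to U3), and the third control mice (C1 to C3), wild type by their labels and Fstl WT/fl in the paper's methods. The score came from heart weight relative to body weight. In the cKO mice, Tie2-Cre removes the floxed allele of Fstl1 in the endothelium, the endocardium and cells descended from them, and the other allele is a knockout in all cells, so the sequenced nuclei are not the cells in which Cre acts. U3 is called a heterozygous cKO in its title although its genotype field matches the rest of the cKO group. Control mice were female and unstressed cKO mice male according to the paper, so in that comparison genotype and sex cannot be told apart. The paper does not state the sex of the stressed cKO mice that were sequenced, so a part of sex in their comparisons is unknown. The labels give no litter or pairing of the mice, and every library was taken as 1 mouse.

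Mitosis requires proteins that most adult cells do not make. Cardiomyocytes of mice leave the cell cycle in the first weeks after birth, and many replicate their DNA or divide their nucleus without dividing the cell, so transcripts of these genes do not by themselves show cell division. Many genes of this kind share 2 promoter elements, the cell cycle genes homology region (CHR), which the DREAM and MuvB complexes bind, and the CCAAT box, which NF-Y binds.

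The RefSeq promoter windows (GRCm38.p6, 250 bases before to 50 bases after the start site) of 5 members are printed to show these elements. Ckap2l, Mki67, Aspm and Top2a were among the 5 members with the smallest p between stressed cKO mice and control mice. Nusap1, which was higher in all 6 cKO mice than in all 3 control mice, is printed because its window held neither element. Capitals mark the CHR (TTTGAA or TTCGAA) and CCAAT, each on either strand, so that TTCAAA and ATTGG are the same elements on the other strand. The windows lie at chr2:129297163-129297462 (minus strand), chr7:135716330-135716629 (minus strand), chr1:139454523-139454822 (plus strand), chr11:99024140-99024439 (minus strand) and chr2:119618048-119618347 (plus strand), and each is written 5′ to 3′ along its gene.
Ckap2l: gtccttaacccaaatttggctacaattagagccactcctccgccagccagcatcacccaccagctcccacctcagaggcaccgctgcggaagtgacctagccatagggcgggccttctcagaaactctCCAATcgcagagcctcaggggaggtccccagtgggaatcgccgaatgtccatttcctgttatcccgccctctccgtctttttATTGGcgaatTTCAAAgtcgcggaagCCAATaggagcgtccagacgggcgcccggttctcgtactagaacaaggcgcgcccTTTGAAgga
Mki67: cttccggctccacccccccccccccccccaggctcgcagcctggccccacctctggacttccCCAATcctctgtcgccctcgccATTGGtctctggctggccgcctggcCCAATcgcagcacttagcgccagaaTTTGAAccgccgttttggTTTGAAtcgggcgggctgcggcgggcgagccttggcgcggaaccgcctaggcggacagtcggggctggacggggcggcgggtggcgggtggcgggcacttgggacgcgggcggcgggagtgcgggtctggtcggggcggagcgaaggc
Aspm: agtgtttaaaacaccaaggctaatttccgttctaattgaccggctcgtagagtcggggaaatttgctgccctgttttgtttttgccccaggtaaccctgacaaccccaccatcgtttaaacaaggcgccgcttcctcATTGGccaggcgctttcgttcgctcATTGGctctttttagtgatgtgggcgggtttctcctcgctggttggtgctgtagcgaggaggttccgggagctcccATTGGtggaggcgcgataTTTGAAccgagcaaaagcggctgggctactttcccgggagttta
Top2a: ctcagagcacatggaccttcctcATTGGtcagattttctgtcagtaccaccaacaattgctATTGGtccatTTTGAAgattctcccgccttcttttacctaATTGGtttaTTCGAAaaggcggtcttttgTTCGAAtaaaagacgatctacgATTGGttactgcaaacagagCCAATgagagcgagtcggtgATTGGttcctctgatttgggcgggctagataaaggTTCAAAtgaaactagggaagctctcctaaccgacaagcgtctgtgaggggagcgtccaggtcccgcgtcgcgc
Nusap1: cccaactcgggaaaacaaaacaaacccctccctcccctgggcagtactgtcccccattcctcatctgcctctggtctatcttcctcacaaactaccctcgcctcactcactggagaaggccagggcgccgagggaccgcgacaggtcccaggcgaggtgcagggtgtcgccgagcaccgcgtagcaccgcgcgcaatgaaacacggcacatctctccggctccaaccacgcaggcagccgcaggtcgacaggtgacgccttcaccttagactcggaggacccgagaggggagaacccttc

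A CHR was present in 26 of the 34 members with a window (76.5%, exact 95% interval 58.8 to 89.3%), against 19.2% of the 32851 windows in the whole table. CCAAT was present in 25 of 34 (73.5%), against 37.4% of all windows, and both elements in 23 of 34 (67.6%), against 7.52%. The windows of the members were richer in G and C, with a median of 58.8% against 52.7% over all windows, and the part of base composition in these shares was not tested. With TTTGAA alone the members' share was 24 of 34 (70.6%), against 17.9% of all windows. Top2a held 4 CHRs and 6 CCAAT boxes, the most elements of the 5 windows printed. In Aspm, the CHR lay 7 bases past the start site and a CCAAT box 12 bases before it. The 8 windows without a CHR were those of Birc5, Ccnb1, Cenpe, Kif18a, Melk, Ncaph, Nuf2 and Nusap1. No window was given for Ccna2, Cdc25c, Tpx2 and Smc4. In no window did a CHR and a CCAAT box share a base. The bases just past the start site matched an annotated transcript of the gene in 22 of the 34 windows. The window of Kif2c, whose CHR is counted here, lies at chr4:117178723-117179022 (minus strand). It is inside the annotated gene (chr4:117159639-117182639) and away from the annotated start of that gene. A match describes the letters of the window and shows no binding.

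**Figure D1:**
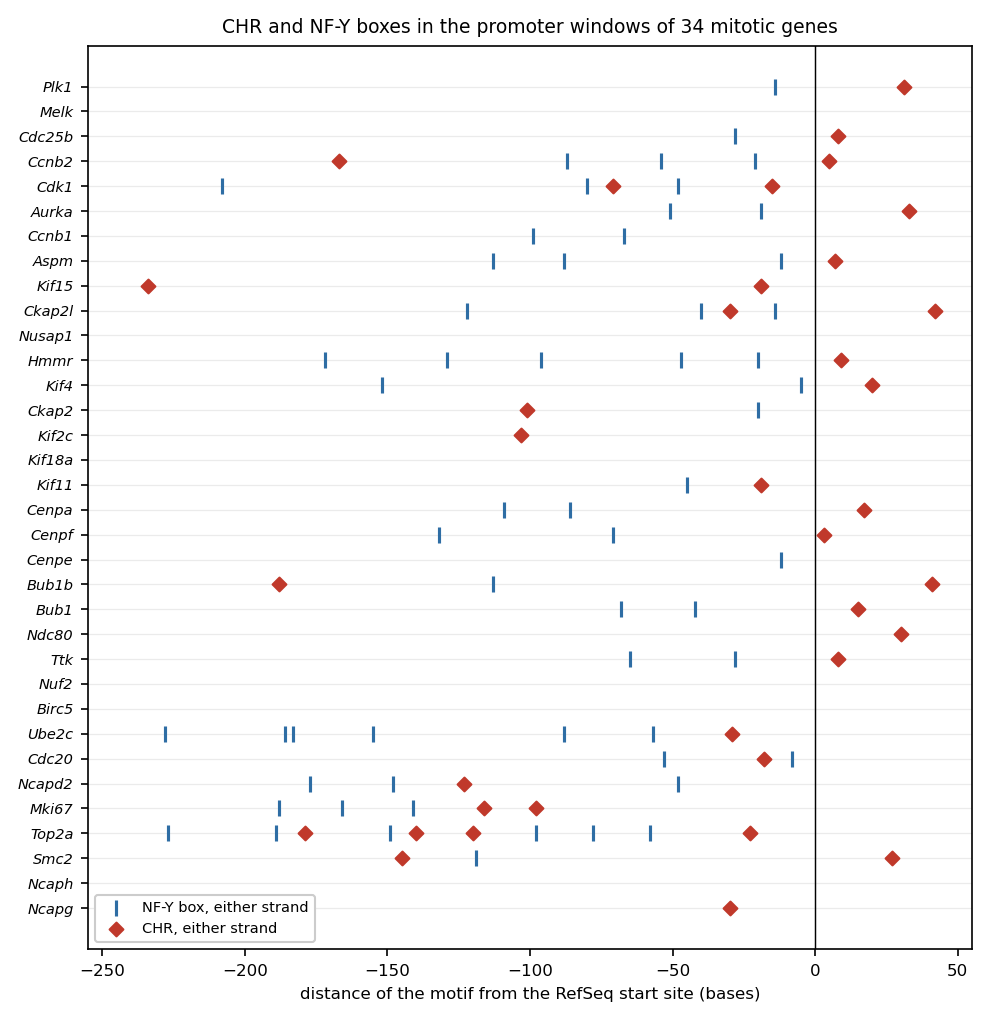
Position of each CHR (red diamonds) and NF-Y box (blue bars), on either strand, relative to the RefSeq start site (0, in bases) for the 34 members with a window, ordered by role. CHRs were found in 26 windows and NF-Y boxes in 25, and 8 rows have no diamond.

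Transcripts of these genes were rare in the sorted nuclei. Recovered reads numbered 10805513 to 12698502 in stressed cKO mice, 8804295 to 11341764 in unstressed cKO mice, against 8262684 to 12597012 in control mice. Of these, the members took 4350 to 4711 reads in stressed cKO mice, 3073 to 3600 in unstressed cKO mice, against 1803 to 3721 in control mice. Normalized counts, the deposited unit, are reads divided by 1 size factor per library. Ribosomal RNA of mitochondria was at 3.81% of the reads in S2 and 3.84% in U3, against 0.941 to 1.15% in the other libraries. The sum over 13 cardiomyocyte marker genes was between 2377035 and 3914007 normalized counts in every library. Fstl1, the targeted gene, was at 97.4, 145 and 123 normalized counts in stressed cKO mice, 69.6, 98.6 and 125 in unstressed cKO mice, and at 124, 102 and 95.04 in control mice. These groups overlapped. Cre acts only in cells of the Tie2 lineage, while the other allele is a knockout in all cells of the cKO mice, and why the levels overlapped was not tested.

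The members differed widely in level. Only 8 of 38 had a mean over the 9 libraries of at least 100 normalized counts, and 21 had a mean under 25. All 38 had reads in some library, 26 had reads in every library, and 12 were at 0 in at least 1. Of all 38, 32 reached 10 normalized counts in at least 3 libraries and were tested, and 6 did not (Melk, Ttk, Aurka, Nuf2, Ncapg and Ccnb1). Per kilobase of exon, Ncapd2 was at a mean of 167 normalized counts, Cenpa at 57.8, Mki67 at 53.4 and Smc4 at 32.1, and Ccnb1 at 0.28. The 3 most abundant members took 50.6 to 66.5% of the members' reads in a library.

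**Figure D2:**
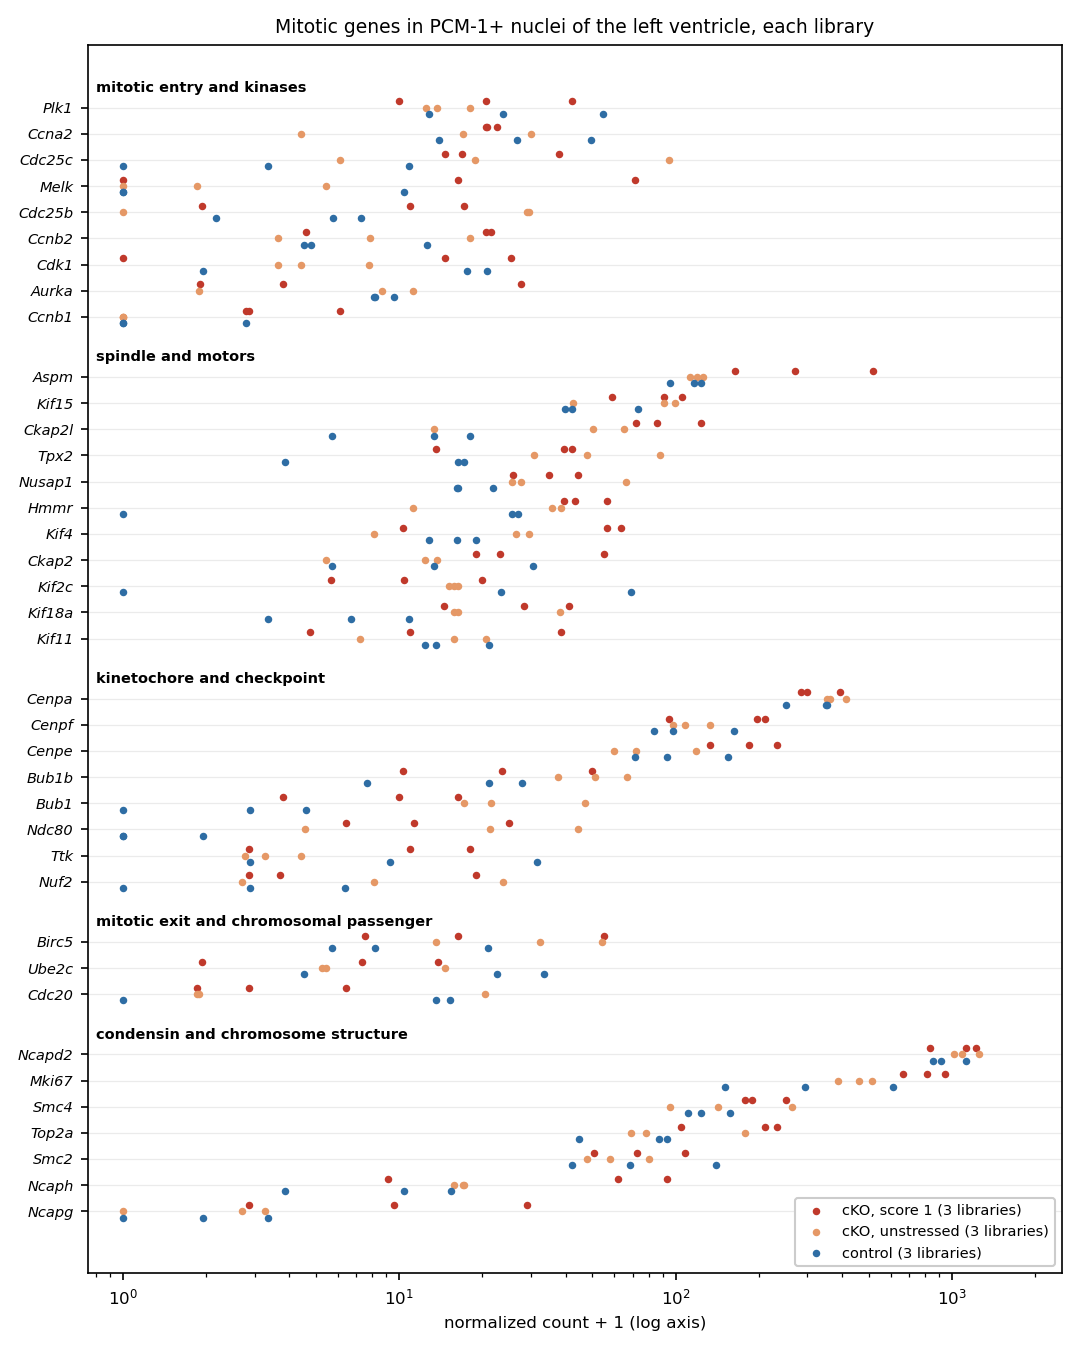
Normalized count plus 1 (log axis) of each of the 38 members in each of the 9 libraries, 3 points per group, by role and by mean within the role. The red points of Aspm, Ckap2l, Mki67, Hmmr and Ccnb1 all lie right of the other 6 points, and the points of Ncapd2 and Cenpa lie close together. For Ccnb1, S1, S3 and C2 had 2 reads each.

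Levels of the summed members were higher in stressed cKO mice than in the other mice. The 38 members together reached 4030, 4027 and 4074 normalized counts in those mice (no test was made on sums), 3507, 3061 and 3028 in unstressed cKO mice, and 2130, 3338 and 2394 in control mice. All 3 values of the first group lay above all 6 others, and the unstressed cKO mice overlapped the control mice through C2. The log2 ratio of the group means was 0.63 between stressed cKO mice and control mice, 0.29 between unstressed cKO and control mice, and 0.34 between stressed and unstressed cKO mice. The SD of the log2 sums within groups, pooled over the 3 groups, was 0.21. The groups were unequal in spread, with an SD of 26.7 normalized counts in stressed cKO mice, 268 in unstressed cKO mice and 635 in control mice. The sum was led by Ncapd2, Mki67 and Cenpa, and without them the 3 ratios were 0.91, 0.35 and 0.56. Without C2, the control mouse with the highest sum, the first ratio was 0.84 and the second 0.50.

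Spindle and motor genes had the largest of these ratios. Their sum was 665, 609 and 923 normalized counts in stressed cKO mice, 519, 439.7 and 357 in unstressed cKO mice, and 230.4, 374 and 297 in control mice, a log2 ratio of 1.29 between the first group and the last. Much of that difference lay in Aspm (mean 316 against 111) and Ckap2l (92.8 against 11.4). In S3, Aspm alone was at 516. Condensin and chromosome genes reached 2410, 2281 and 2489, against 1270.2, 2033 and 1534 in control mice, a log2 ratio of 0.57. This sum includes Mki67 and Top2a, which are not condensin subunits. Mki67 had a mean of 808 in stressed cKO mice against 352 in control mice, and Top2a 182 against 74.2. The condensin subunit Ncapd2 had 1056 against 964. The 3 genes of mitotic exit had a log2 ratio of -0.15, with 9.37 to 65.9 in stressed cKO mice and 8.27 to 66.5 in control mice.

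Markers of other cells were summed in the same way. The 14 endothelial and endocardial markers, all of them read, had sums of 2060, 2686 and 1788 normalized counts in stressed cKO mice, with 2075, 1786 and 1943 in unstressed cKO mice, against 1447, 2064 and 1301 in control mice. All 14 had a log2 fold change above 0 between stressed cKO mice and control mice, with a median of 0.41. Among stressed cKO mice the sums of all 38 members were nearly equal. The sum of the members without Ncapd2, Mki67 and Cenpa was 1866, 1991 and 1712 in stressed cKO mice, 1390.2, 1233 and 1141 in unstressed cKO mice, and 714, 1254 and 995 in control mice, and the kinetochore genes summed to 713, 956 and 549.8 in stressed cKO mice. In both, S2 was highest and S3 lowest of the stressed cKO mice, as in the endothelial sums, and C2 was the highest control mouse in all of these. The other roles had other orders. S3 was highest and S2 lowest for the spindle genes (665, 609 and 923 in S1 to S3). The condensin and chromosome genes had the same order (2410, 2281 and 2489). For mitotic entry (177, 150 and 104) and mitotic exit (65.9, 29.1 and 9.37), S1 was highest and S3 lowest. Fibroblast markers, 12 genes, summed to 3290, 3610 and 2123 in stressed cKO mice and to 2160, 2454 and 2531 in control mice. The 12 leukocyte markers that were read summed to 241, 219.7 and 209 in stressed cKO mice and to 362, 209 and 231 in control mice. The 10 smooth muscle and pericyte markers summed to 5693, 8822 and 12541 in stressed cKO mice, against 10281 to 10829.9 in control mice, and the 7 erythroid markers, 2 of them at 0 in all libraries, to 12.6 to 109 over the 9 libraries. The part of other cells in the mitotic levels was not tested. In RNA of pooled nuclei, more dividing nuclei and more transcripts per nucleus cannot be told apart.

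**Figure D3:**
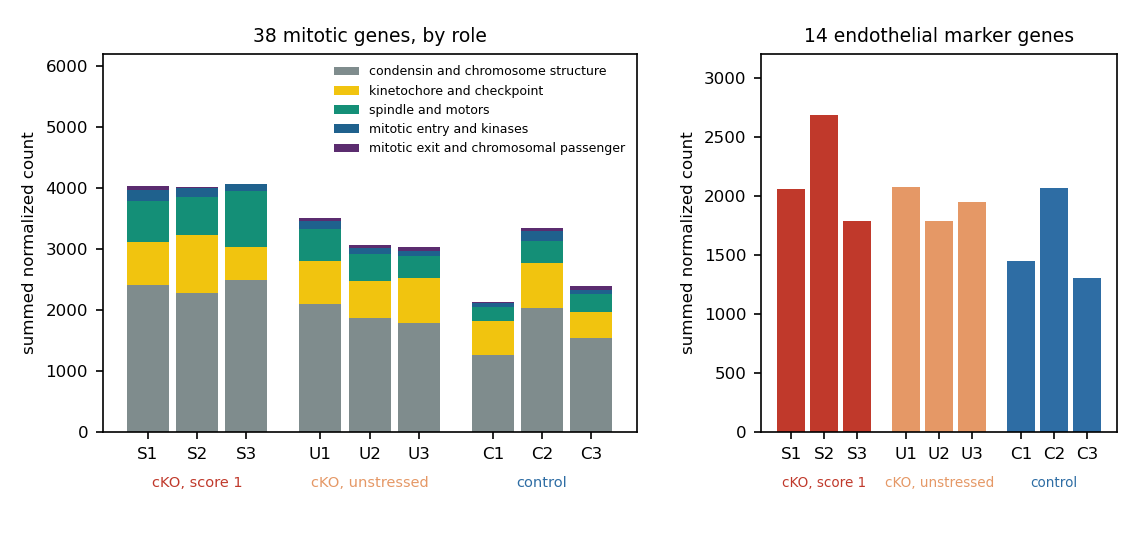
Left, summed normalized count of the 38 members in each library, stacked by role. Right, summed normalized count of 14 endothelial and endocardial markers in the same libraries, on an axis from 0. The left bars of S1 to S3 stand at 4030, 4027 and 4074, above all others. The right bars stand at 2060, 2686 and 1788 in S1 to S3 and at 1447, 2064 and 1301 in C1 to C3, and overlap.

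Whether cardiac stress was accompanied by a change in single mitotic genes was asked with limma on log2(normalized count + 1), on which fold changes of low genes come out too small, over 13454 genes in all. At a Benjamini-Hochberg adjusted p of 0.05, limma called 0 of the 32 tested members in stressed cKO mice against control mice, where it called 0% of all genes tested, and edgeR also called 0. At an unadjusted p under 0.05, 9 members were higher in stressed cKO mice and 0 lower, against 4.38% of all genes tested higher and 3.29% lower. Of all 38 members, 28 had a log2 fold change above 0, against 49.3% of all genes tested, and 11 were higher in every stressed cKO mouse than in every control mouse, against 3.59% of all genes with a read. The 11 include Ccnb1, which had 2 reads in each of S1, S3 and C2, parted by size factors alone. Of the 32 tested members, 10 lay wholly higher. The 3.59% is over 25815 genes, which include those below the filter, where reads are few and groups can tie at 0. The later shares of all genes with a read have the same limit. A gene that reached 10 normalized counts only in 1 group entered the test because it was high there, so the count of 9 describes the tested members only. The median log2 fold change was 0.93 over all 38 members, against -0.01 over all genes tested. Over the 32 tested it was 0.87, and it ranged from 0.61 without C1 to 1.09 without C2.

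Ckap2l, a microtubule-associated protein needed for an ordered spindle, had the smallest p of the members. It was at 84.8, 70.9 and 123 in stressed cKO mice, 63.9, 49.3 and 12.4 in unstressed cKO mice and 4.73, 17.0 and 12.4 in control mice. The stressed cKO mice did not overlap either other group. Its log2 fold change against control mice was 3.04 ± 0.71 (SE, limma adjusted p = 0.307), and with DESeq2 on the recovered reads it was 3.01 (adjusted p = 0.00345), which missed the threshold without S3 (2.76, adjusted p = 0.0644). DESeq2 called 0.265% of the genes to which it gave an adjusted p, and Ckap2l was the only member among them. Exons of Ckap2l overlap those of Gm14024 on the other strand, which had at most 2 reads in a library. Against unstressed cKO mice the log2 fold change was 1.37 ± 0.71 (SE, limma adjusted p = 0.809).

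Mki67 encodes Ki-67, the protein that coats mitotic chromosomes and that the study used as its stain for cycling cells. Its normalized counts were 666, 814 and 944 in stressed cKO mice, 512, 385 and 459.6 in unstressed cKO mice and 150.1, 613 and 293 in control mice. S1 to S3 lay above all 6 other libraries, but C2 at 613 came close to S1 at 666. The log2 fold change was 1.41 ± 0.37 (SE, limma adjusted p = 0.474) against control mice and 0.83 ± 0.37 (SE, limma adjusted p = 0.772) against unstressed cKO mice. Neither passed the test. In the paper, Ki-67 staining at P12 did not differ significantly between cKO and control mice. That stain scores protein in single nuclei, and the values here are RNA of pooled nuclei.

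Aspm, a protein of the spindle poles, was at 269, 163 and 516 in stressed cKO mice, 119, 111 and 125 in unstressed cKO mice and 94.5, 123 and 116 in control mice. Its 3 values in stressed cKO mice were the 3 highest of the 9, and the other 6 lay within a narrow range. The log2 fold change against the 6 other mice together was 1.3 ± 0.33 (SE, limma adjusted p = 0.366). DESeq2 called it there (1.46, adjusted p = 0.00914), alone among the members, with 0.385% of genes called, and the call was lost without S3, its highest library (0.91, adjusted p = 0.169). Against control mice alone DESeq2 gave an adjusted p of 0.0969.

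Top2a, the topoisomerase that untangles sister chromatids, was at 233, 210.3 and 104 in stressed cKO mice, 178, 68.0 and 77.2 in unstressed cKO mice and 43.7, 92.4 and 86.5 in control mice. All of S1 to S3 lay above the control mice, while U1 lay above S3. The log2 fold change was 1.28 ± 0.48 (SE, limma adjusted p = 0.580) against control mice. Across the 9 libraries its log2 values followed the mean of the other tested members with r = 0.77, and those of Mki67 with r = 0.84, over libraries that share group and depth. The median over the 496 pairs of tested members was 0.20, and 0.12 after the group means were taken away, against 0.00 over pairs of all genes tested. Ccna2, the cyclin of S and G2 phases, had r = -0.05, and Plk1, a kinase of mitotic entry, 0.01.

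**Figure D4:**
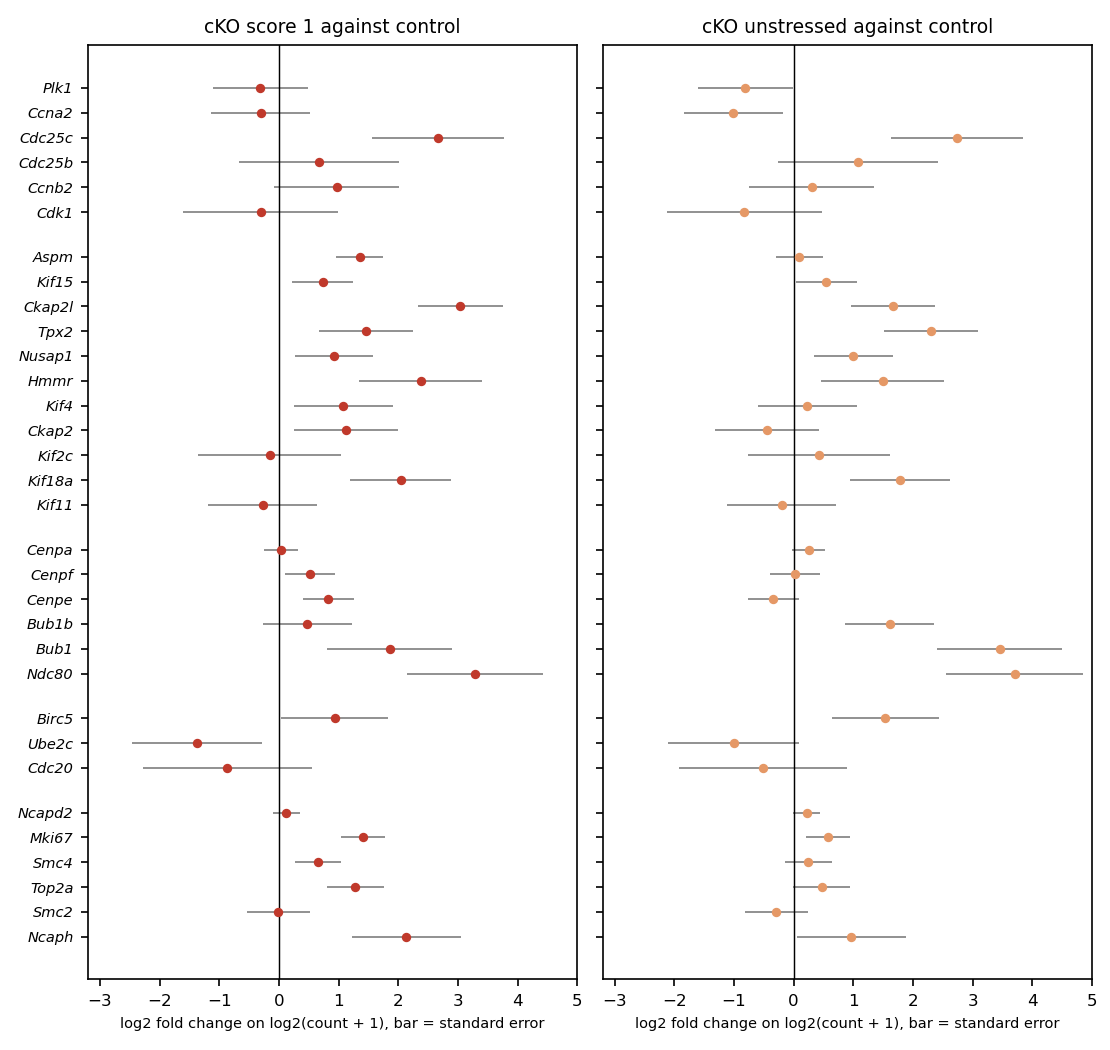
Log2 fold change of the 32 tested members on the scale of log2(normalized count + 1), with standard errors as bars, for stressed cKO mice (left) and unstressed cKO mice (right) against control mice, by role. Ckap2l stands at 3.04 on the left and 1.66 on the right, and Ndc80 at 3.29 and 3.70, none of them past the adjusted threshold in limma.

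Among the remaining spindle genes, Hmmr, a receptor for hyaluronan that also acts at spindle poles, was at 38.4 to 55.6 normalized counts in stressed cKO mice, 10.3 to 37.4 in unstressed cKO mice, against 0 to 26.0 in control mice. It was among the 5 members above all 6 other libraries in S1 to S3, with Mki67, Aspm, Ckap2l and Ccnb1, where 1.12% of all genes with a read did so. Ccnb1 had 2, 6 and 2 reads in S1 to S3 and 2 in C2, so its S1 and S3 were parted from C2 by size factors alone. Kif18a, a kinesin that dampens chromosome movement, was at 13.5 to 40.3, 14.8 to 37.3 and 2.36 to 9.87 in the same order of groups. Exons of Kif18a overlap those of Mettl15 on the other strand, which was read in these libraries too, and how strand was used in counting is not stated, so its values are uncertain. Nusap1, which bundles spindle microtubules, was at 24.8 to 43.3, 24.7 to 65.1 and 15.3 to 20.9, and its exons overlap those of Oip5 in the same way. Kif15, a motor that helps keep the spindle bipolar, was at 90.2, 104 and 58.1 in stressed cKO mice, 90.2, 98.6 and 41.7 in unstressed cKO mice and 39.0, 41.3 and 72.2 in control mice. Its groups overlapped.

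Kif11, the motor that drives the spindle poles apart, and Kif2c, which takes microtubules apart at their ends, were uncertain in direction. Their log2 fold changes against control mice were -0.28 ± 0.92 and -0.15 ± 1.20 (SE). Kif2c was at 4.68 to 18.9 in stressed cKO mice, against 0 to 68.2 in control mice. Kif4, a kinesin of chromosome arms and the central spindle, was at 9.37 to 62.2 in stressed cKO mice, 7.10 to 28.5 in unstressed cKO mice, against 11.8 to 18.1 in control mice, and its groups overlapped. Tpx2, an activator of Aurora A at the spindle, was at 12.6, 38.5 and 41.2 in stressed cKO mice, 86.7, 29.8 and 47.0 in unstressed cKO mice and 15.4, 16.1 and 2.85 in control mice. S1 overlapped the control mice, and the unstressed cKO mice did not. Ckap2, a microtubule-stabilizing protein, was at 18, 22.2 and 54.3 in stressed cKO mice, 11.4, 12.8 and 4.44 in unstressed cKO mice and 4.73, 29.6 and 12.4 in control mice. All of S1 to S3 lay above the unstressed cKO mice but not above C2, with a log2 fold change of 1.57 ± 0.87 (SE, limma adjusted p = 0.817) against unstressed cKO mice.

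The kinetochore genes were divided. Cenpa, the histone H3 variant that marks the centromere, was at 282, 391 and 298 in stressed cKO mice, 352, 359.7 and 413 in unstressed cKO mice and 353, 348 and 249.9 in control mice. These groups overlapped, and its highest library was only 1.65 times its lowest. Cenpf, a kinetochore protein of late G2, was at 197, 209 and 93.7 in stressed cKO mice, 97.0, 107 and 132 in unstressed cKO mice and 82.7, 162 and 96.9 in control mice. Cenpe, the kinesin that moves chromosomes to the spindle equator, was at 184, 232 and 132 in stressed cKO mice, 118, 58.7 and 71.0 in unstressed cKO mice and 92.2, 154 and 70.3 in control mice. For Cenpe, S1 to S3 lay above the unstressed cKO mice with a log2 fold change of 1.17 ± 0.43 (SE, limma adjusted p = 0.75), and C2 lay above S3.

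Ndc80, a subunit of the complex that holds microtubules at the kinetochore, was at 5.41, 23.9 and 10.3 in stressed cKO mice, 43.4, 20.4 and 3.55 in unstressed cKO mice and 0, 0 and 0.950 in control mice. It had 1 read over the 3 control mice, against 45 in stressed cKO mice and 66 in unstressed cKO mice. The ratio of normalized reads over control mice was 40.5 (exact 95% interval 6.91 to 1636, counting error only) in stressed cKO mice and 62.6 (10.8 to 2508) in unstressed cKO mice. With a library left out, the first was 23.5 without S2, 25.5 without C2 and at most 52.5, and the second 36.6 without U1, 39.4 without C2 and at most 91.04, and without C3 the control mice had no read. Neither comparison passed limma (adjusted p = 0.558 and 0.9995). Bub1, a kinase of the spindle checkpoint, was at 9.02, 15.4 and 2.81 in stressed cKO mice, 20.5, 16.2 and 46.1 in unstressed cKO mice and 0, 3.59 and 1.90 in control mice. All stressed cKO mice lay below all unstressed cKO mice, with a log2 fold change of -1.60 ± 1.04 (SE, limma adjusted p = 0.858) as stressed minus unstressed, and 4.55% of all genes with a read lay wholly lower there. Bub1b, its relative at the kinetochore, was at 9.37 to 48.7 in stressed cKO mice, 36.6 to 65.7 in unstressed cKO mice, against 6.65 to 26.9 in control mice. Nuf2, of the same complex as Ndc80, and Ttk, the checkpoint kinase Mps1, were too low to be tested, with at most 22.8 and 30.5 normalized counts.

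The condensin subunits differed among themselves. Ncapd2, the most abundant member and a subunit of condensin I, was at 1216, 831 and 1120.2 in stressed cKO mice, 1253, 1083 and 1014 in unstressed cKO mice and 913, 1123 and 856 in control mice. Its groups overlapped, and its highest library was 1.51 times its lowest. Exons of Ncapd2 are shared on the same strand with Scarna10, which had at most 12 reads in a library. Smc4, an ATPase of both condensins, was at 188, 250.4 and 177 in stressed cKO mice, 94.7, 263 and 142 in unstressed cKO mice and 109.9, 123 and 156 in control mice. Here S1 to S3 lay above the control mice, and U2 lay above them all. Smc2, the partner of Smc4, was at 71.3, 107 and 49.6 in stressed cKO mice, 46.8, 57.0 and 79.0 in unstressed cKO mice and 41.4, 67.3 and 139 in control mice. Its highest library was C3. Ncaph, the subunit that closes the ring of condensin I, was at 8.12 to 91.8 in stressed cKO mice, 14.8 to 16.2 in unstressed cKO mice, against 2.85 to 14.4 in control mice, with S1 among the control mice. Ncapg, another subunit of condensin I, was below the filter. It was at 28.0, 8.55 and 1.87 in stressed cKO mice, 2.28, 1.70 and 0 in unstressed cKO mice and 2.36, 0 and 0.950 in control mice. S1 held most of its reads, and S3 lay below C1. The ratio of normalized reads between stressed cKO and control mice, from 43 and 3 reads, was 12.9 (exact 95% interval 4.13 to 65.0, counting error only), and it was 5.39 without S1, 27.8 without C1 and 8.13 without C2.

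Kinases and cyclins of mitotic entry were low and uneven. Cdc25c, a phosphatase that activates Cdk1, was at 37.0, 13.7 and 15.9 in stressed cKO mice, 93.6, 5.10 and 17.7 in unstressed cKO mice and 2.36, 9.87 and 0 in control mice. All of S1 to S3 lay above the control mice. The highest level was in U1, and the unstressed cKO mice overlapped the control mice through U2. Exons of Cdc25c overlap those of Gm3550 on the other strand, which had at most 5 reads in a library. Cdk1, the kinase that drives mitosis, was at 0 to 24.4 in stressed cKO mice, 2.66 to 6.8 in unstressed cKO mice, against 0.950 to 19.7 in control mice. Ccnb1, a cyclin partner of Cdk1, had 10 reads over S1 to S3, 0 over the unstressed cKO mice and 2 over the control mice. The exact 95% lower limit of its ratio between stressed and unstressed cKO mice was 2.13, and its ratio to control mice was 4.5 (exact 95% interval 0.960 to 42.3), both for counting error only. Ccna2, Plk1 and Cdk1 had log2 fold changes of -0.31 each against control mice. Ccna2 was at 19.7 to 21.5 in stressed cKO mice, 3.42 to 28.9 in unstressed cKO mice, against 13 to 48.4 in control mice, and Plk1 at 9.02 to 41.2, 11.5 to 17.1 and 11.8 to 53.8 in that order. Their groups overlapped. Cdc25b, a phosphatase like Cdc25c, was at most at 28.4 in any library, Ccnb2, a cyclin of mitosis, at 20.5, and Aurka, the kinase Aurora A, at 26.5. Melk, a kinase of dividing cells, reached 70.4 in S1 and at most 15.4 elsewhere. Exons of 11 members, among them Ccna2, Cdc25b, Plk1, Kif4 and Ncapg, overlap a gene on the other strand, so their values are uncertain to the extent that gene was read.

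Genes of mitotic exit had no common direction. Ube2c, an enzyme of the anaphase-promoting complex, was at 0.937 to 12.8 normalized counts in stressed cKO mice, 4.25 to 13.7 in unstressed cKO mice, against 3.54 to 32.3 in control mice. Cdc20, an activator of that complex, was at 0.855 to 5.41, 0.85 to 19.4 and 0 to 14.3 in the same order. Birc5, or survivin, was at 6.56 to 54.1, 12.6 to 53.2 and 4.73 to 20. All 3 genes overlapped between the groups. Exons of Ube2c overlap those of Tnnc2 on the other strand, which had no reads, and exons of Cdc20 those of Elovl1, which had up to 161.

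Between unstressed cKO mice and control mice, limma called 0 of the 32 members and 0% of all genes tested, and edgeR and DESeq2 called 0 members. At an unadjusted p under 0.05, 7 members were higher and 0 lower, against 2.43% of all genes tested higher and 1.74% lower. Of all 38, 25 had a log2 fold change above 0, against 51% of all genes tested, and 7 were higher in every unstressed cKO mouse than in every control mouse, against 3.8% of all genes with a read. DESeq2 called 0.0594% of genes. The 7 with the small p were Bub1, Ndc80, Tpx2, Cdc25c, Ckap2l, Bub1b and Kif18a. Of these, Bub1, Ndc80, Cdc25c and Kif18a were under 10 normalized counts in every control mouse. They passed the filter only through cKO mice, where they were high, so the count of 7 describes the tested members only. The log2 fold change of Bub1 was 3.45 ± 1.04 (SE) and that of Tpx2 2.30 ± 0.79 (SE), each at an adjusted p of 0.9995 from limma. The median over all 38 members was 0.25, and over the tested members it ranged from 0.13 without C1 to 0.66 without C2. This comparison shares its control mice with the one above. Ndc80, Kif18a and Nusap1 were higher in all 6 cKO mice than in every control mouse. The share of all genes that did so was not counted, so these members cannot be compared with a background. In C1 to C3, Ndc80 had 0, 0 and 1 reads and Kif18a 2, 11 and 6.

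Between the groups of cKO mice, limma, edgeR and DESeq2 called 0 members, and limma called 0% of all genes tested. At an unadjusted p under 0.05, 3 members were higher in stressed cKO mice and 0 lower (Aspm, Cenpe and Mki67), against 3.08% of all genes tested higher and 3.26% lower. Of all 38, 23 had a log2 fold change above 0, against 48.8% of all genes tested, and 7 lay wholly higher, against 3.41% of all genes with a read. DESeq2 called 0.176% of genes. The median log2 fold change was 0.34 over all 38 members. Against the 6 other mice together, limma called 0 members and 0.00743% of all genes tested, and edgeR called 0 members. There, 6 members were higher at an unadjusted p under 0.05 and 0 lower, against 4.01% of all genes tested higher and 4.07% lower, and 31 of 38 members had a log2 fold change above 0, against 49%.

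Values also differed by library and by the series of mouse numbers. C1 held the lowest value of 14 members and the highest of 0, and S2 held the highest of 8. A tie at 0 was credited to 1 library, the first in the order S1 to C3. C1 also had the fewest reads of the 9 libraries, 8262684, and the most members at 0, 6 of 38. The part of depth in its low values was not tested. The mouse numbers in the titles fall in 2 ranges, here called series A (S1, S2, U1 to U3 and C1) and series B (S3, C2 and C3). Within series A, the median log2 difference between S1 and S2 and the control mouse C1 was 1.23, with 34 of 38 members above 0. Within series B, that between S3 and the control mice was 0.14, with 22 of 38 above 0. The median over all genes tested was -0.02 in series A and 0.00 in series B. The log2 ratio of the summed members differed less, with 0.92 in series A and 0.51 in series B. Each rests on 1 mouse on one side and has no replicate check. Ckap2l was higher in both, by 3.78 and 2.99, as was Aspm, by 1.14 and 2.10. For Mki67 they were 2.29 and 1.15, and for Top2a 2.31 and 0.22. Between U1 to U3 and C1, all in series A, the median was 0.70, with 28 of 38 members above 0, against -0.02 over all genes tested. That value also rests on 1 control mouse, and no unstressed cKO mouse was in series B.

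Other genes of the cell cycle were listed beside the members. Of 84 other mitotic genes found, 67 were tested in stressed cKO mice against control mice, with 0 called by limma. At an unadjusted p under 0.05 there were 6 higher and 1 lower, with a median log2 fold change of 0.40. Their sum was 12217, 11397 and 12364 normalized counts in stressed cKO mice, 11187, 9868 and 10614 in unstressed cKO mice, and 10366, 12642 and 11862 in control mice, a log2 ratio of 0.05 between stressed cKO and control mice, with C2 the highest of all. Gtse1 and Knl1 had log2 fold changes of 3.22 and 1.36, and Mis12, of the kinetochore, had -2.27. Of 45 genes of S phase, 37 were tested, with 0 called, 4 higher at an unadjusted p under 0.05 and a median of 0.51. These included Chaf1a, a histone chaperone subunit, with 2.25, Pole, a replicative polymerase, with 1.27 and Dnmt1 with 0.86. The summed S phase genes were 3668, 4369 and 3844 normalized counts in stressed cKO mice, 3160.4, 3243 and 2916 in unstressed cKO mice, and 2718, 3398 and 2730.4 in control mice, a log2 ratio of 0.43 between stressed cKO and control mice. Among 24 regulators of mitotic transcription, such as the E2F, DREAM, FOXM1 and NF-Y genes, 23 were tested with a median of 0.18, and Mybl1 had the smallest p with a log2 fold change of 2.0 ± 0.54 (SE, limma adjusted p = 0.474). The 17 genes of the anaphase-promoting complex had a median of 0.09 over the 16 tested.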

How the data were processed

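Nuclear RNA of PCM-1-positive nuclei was sequenced from 9 mice with 50-base single reads. Alignment by the authors used STAR and mm10, and scaling DESeq2. Versions, annotation, counter and strand use: not given in the sources used here. As deposited, the signal is a normalized count, that is, reads scaled by the size factor of their library. In every library 100% of values above 0 were whole multiples of 1 read (tolerance 0.001), so reads were recovered. GENCODE M21 gave a name to 18579 of the 19316 genes that lacked a symbol.

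With limma 3.58.1 in R 4.3.3, log2(normalized count + 1) was fitted over all 9 libraries for 13454 genes with at least 10 in at least 3 libraries, with a trend, two-sided, with Benjamini-Hochberg adjustment and a threshold of 0.05. For comparison, DESeq2 1.42.0 and edgeR 4.0.16 with TMM were run on the recovered reads. Scaling, pseudocount, filter, samples, series covariate and left-out libraries were varied. Tests were run on simulated data first. Reads are not independent molecules, so intervals cover counting error only, and p-values measure the spread between these mice.

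The members and gene lists were chosen with earlier results of these data known. All members could be named; values in every library are given for the 10 with the highest mean and up to 5 with the smallest p in each comparison, and up to 3 genes per other list are named.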

Additional observations from a re-analysis of the deposited data

How the results depend on the processing

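The number of members called by limma was 0 in each of the 4 comparisons under every alternative run with limma or edgeR, leaving out each library included. With DESeq2 on the recovered reads 1 member was called in stressed cKO mice against control mice (Ckap2l, with 36 genes in all) and 1 against the 6 other mice (Aspm, with 58 genes), and 0 in the other comparisons (27 genes between the groups of cKO mice and 9 in unstressed cKO against control mice). Without S3, a check chosen after seeing the data, neither was called, with a log2 fold change of 2.76 for Ckap2l (3.01 with S3) and 0.91 for Aspm (1.46 with S3).

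Genes called by limma, over all genes, changed more. In stressed cKO mice against control mice, 1 gene was called with only the groups compared, and 0 to 3 with a library left out. In unstressed cKO against control mice it was 3 after quantile normalization, 3 with a pseudocount of 5, 4 with the series as a covariate and 4 with only the groups compared, and between the groups of cKO mice 0 to 5 with a library left out. Against the 6 other mice, 1 was called, and 0 after TMM scaling, quantile normalization, with a pseudocount of 0.5 or without the filter, 2 with a pseudocount of 5, 4 with the series as a covariate, and 0 to 3 with a library left out.

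The log2 ratio of the summed members between stressed cKO mice and control mice was 0.50 to 0.84 with a library left out, and between unstressed cKO and control mice 0.16 to 0.50. Without Ncapd2, Mki67 and Cenpa, a choice made after seeing the data, the first was 0.91 and that between the groups of cKO mice 0.56. The sign of the log2 fold change held under every alternative for 24 of the 32 tested members in stressed cKO mice against control mice for 20 in unstressed cKO against control mice, for 17 in stressed against unstressed cKO mice and for 20 against the 6 other mice. The cause of these changes was not tested. With 3 mice per group, 21 members had a mean under 25 normalized counts, and how large a difference could be detected in them was not tested. No paired analysis was possible because the labels give animal numbers and no pairing of mice across the groups.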
